A study of Mus musculus with 4 samples.

Results

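The genes described here are 10 members of the interleukin-1 family and the inflammasome: Il1b, Il1a, Il1rn, Il1r2, Nlrp3, Casp1, Casp4, Pycard, Il18 and Gsdmd. They were chosen by symbol, and each matched 1 of the 31053 genes in the deposited feature table. All 10 stood among the 18852 genes left after the study's filter (a gene found in at least 3 kept cells, mitochondrial genes left out). Unique molecular identifier (UMI) counts, which number the captured transcript molecules of each cell, were read for them in 4 libraries of single cells from mouse hearts. The baseline library held cells pooled from 3 hearts without surgery. The 3 infarct libraries held 1 heart each, taken 7 days after permanent ligation of the left coronary artery, with the remote non-infarcted muscle cut away. All mice were 12 to 16 weeks old, and all carried the Csf1r-EGFP (MacGreen) reporter, in which the Csf1r promoter drives EGFP in monocytes, macrophages and some other myeloid cells. In both groups, EGFP-positive cells negative for the neutrophil antigen Ly6G were sorted, so that neutrophils were meant to be left out. The baseline group is 1 library, so every comparison with it is a description with no test.

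Interleukin-1β, interleukin-1α and interleukin-18 are secreted by myeloid cells and start inflammation in tissue. Il1b and Il18 encode precursors that stay inactive until caspase-1 cuts them, while the product of Il1a is active as made. The inflammasome is the machine that activates caspase-1: the sensor NLRP3 gathers the adaptor ASC, encoded by Pycard, and ASC gathers caspase-1, encoded by Casp1. Casp4 encodes mouse caspase-11, which senses lipopolysaccharide inside the cell, and Gsdmd encodes gasdermin D, the protein that both caspases cut and that then forms pores in the plasma membrane. Il1rn encodes the receptor antagonist and Il1r2 the decoy receptor, and both limit signalling by interleukin-1. In the infarcted heart, interleukin-1 signalling belongs to the early inflammatory phase, which is followed by a reparative phase. Transcripts do not show whether a precursor was cut or secreted.

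The genes lie on several chromosomes of the mouse genome (GRCm38 coordinates, GENCODE annotation). Il1b (ENSMUSG00000027398, chr2:129364570-129371139, minus strand) and Il1a (ENSMUSG00000027399, chr2:129299610-129309972, minus strand) are neighbours, and Casp1 (chr9:5298517-5307265) lies just before Casp4 (chr9:5308828-5336783) on the plus strand. Nlrp3 lies at chr11:59541568-59566956 (plus strand), Pycard at chr7:127989708-127993867 (minus strand), Il1rn at chr2:24336853-24351494 (plus strand) and Il1r2 at chr1:40074079-40125231 (plus strand). Il18 lies at chr9:50554827-50581840 and Gsdmd at chr15:75862327-75867408, both on the plus strand. Il1b, Il1a, Il1r2, Pycard and Il18 overlap genes on the other strand (Il1bos, Gm14023, Gm16894, Gm45205, and Bco2 with Tex12), and Il1r2 also overlaps Gm37347 on its own strand. The study counted reads of 10x 3' libraries with Cell Ranger at its default setting and does not name the strand option. The part of reads from these overlapping genes in the counts was not tested. RefSeq start windows (GRCm38.p6) were found for 9 of the 10 genes. The 250 bases before the start are shown for the neighbouring cytokine genes Il1b and Il1a, which differed in direction in one macrophage type, for the sensor Nlrp3, which went with Il1b among macrophages, and for the adaptor Pycard, which did not. None of these 4 windows holds an annotated exon base of its own gene. The Il1b window (chr2:129371140-129371389, minus strand) overlaps Il1bos, and the Nlrp3 window (chr11:59542436-59542685, plus strand) lies inside an intron of Nlrp3, before its inner start. The other windows are chr2:129309973-129310222 for Il1a and chr7:127993868-127994117 for Pycard, both on the minus strand. Capitals mark matches on either strand to the letters GAGGAA (PU.1), TTGCNNAA (C/EBP) and TGANTCA (AP-1).
Il1b: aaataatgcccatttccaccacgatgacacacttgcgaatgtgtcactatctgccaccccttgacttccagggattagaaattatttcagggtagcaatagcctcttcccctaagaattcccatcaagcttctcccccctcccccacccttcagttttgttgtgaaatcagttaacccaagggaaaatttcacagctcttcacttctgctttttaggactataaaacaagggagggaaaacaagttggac
Il1a: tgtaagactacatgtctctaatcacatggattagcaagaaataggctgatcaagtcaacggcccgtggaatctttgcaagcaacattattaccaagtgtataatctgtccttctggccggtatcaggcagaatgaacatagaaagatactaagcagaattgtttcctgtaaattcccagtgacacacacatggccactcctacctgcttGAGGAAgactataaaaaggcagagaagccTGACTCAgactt
Nlrp3: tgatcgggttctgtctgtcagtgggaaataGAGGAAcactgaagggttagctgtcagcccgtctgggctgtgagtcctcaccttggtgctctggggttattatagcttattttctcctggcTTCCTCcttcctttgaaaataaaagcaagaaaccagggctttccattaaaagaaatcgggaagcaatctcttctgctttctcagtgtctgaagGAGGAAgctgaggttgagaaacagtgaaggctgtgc
Pycard: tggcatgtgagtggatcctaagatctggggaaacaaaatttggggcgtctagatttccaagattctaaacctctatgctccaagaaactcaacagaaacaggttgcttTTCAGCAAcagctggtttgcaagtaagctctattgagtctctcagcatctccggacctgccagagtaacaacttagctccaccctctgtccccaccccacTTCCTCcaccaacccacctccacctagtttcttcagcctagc

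The Nlrp3 window shown held 3 PU.1 matches, at bases -220, -129 and -36 from the inner start, while the other Nlrp3 window, before the outer start (chr11:59541319-59541568, not shown), held 0 matches to any motif searched. The Il1a window held a PU.1 match at -41 and an AP-1 match at -12, and the Pycard window held a C/EBP match at -142 and a PU.1 match at -42. The Il1b window held no match to any of the motifs searched, which also included kappaB (GGGA and TTCC with 2 free bases between them, whose reverse can share letters with a PU.1 match) and IRF (GAAA and GAAA with 2 free bases between them). Of 32536 RefSeq windows of the same length, 23.4% held a PU.1 match, 9.57% a C/EBP match, 6.73% an AP-1 match, 2.98% an IRF match and 1.21% a kappaB match. A match describes the letters of the window and shows no binding.

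The libraries held 10117 to 10782 cells after the study's limits of 500 to 40000 UMIs and more than 200 genes, with a median depth of 6398.5 UMIs at baseline and 8469.5 to 8556.5 in the infarcts. Cells were assigned to types by gates on the UMIs of marker genes, none of which is among the 10 genes, and a type name below means only that the cells passed that gate. The Gpnmb gate summed Gpnmb, Spp1 and Gdf15, and the Saa3 Arg1 gate summed Saa3, Arg1, Fn1 and Marco. In both, 1 marker was enough if its UMIs reached the cut-off. Granulocyte-like cells were shallow, with medians of 2202 to 2904 UMIs, and their gate held 35628.5 to 51620.9 CPM (UMIs of a gene or list, summed over the cells and scaled to 1e6 UMIs in all) of granulocyte markers, although the sort was meant to remove neutrophils. The B-cell and granulocyte-like gates also carried macrophage transcripts, at 4787 to 13886 CPM and 2334 to 7579 CPM of the C1q macrophage markers respectively, and the part of these transcripts in the values of both gates was not tested. Between 26 and 34 cell barcodes were shared by each pair of libraries.

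Across the infarct libraries, most of the 10 genes were higher in classical monocytes and granulocyte-like cells than in the other cells. For each of 14 types, UMIs were summed per library over the cells of the type and over all other kept cells, and the sums were compared with edgeR's quasi-likelihood test with the library as a block and adjustment over all genes tested. A gene was called when its adjusted p was under 0.01. Of 140 pairs of gene and type, 36 were called higher in the type and 34 lower. The share of all genes tested that was called ran from 7.05% in B cells to 33.3% in Cd209a dendritic cells.

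In classical monocytes (gated on markers such as Ly6c2, Plac8 and Chil3), 8 of the 10 genes were called higher and 0 lower, where 28.7% of all genes tested were called in either direction. Their median log2 fold change was 0.67, against -0.07 over all genes. Granulocyte-like cells had 6 genes higher and 1 lower (12.9% of all genes called), with a median of 1.49 against -0.16. Transitional cells, which carry classical monocyte markers and C1q, had 4 higher and 0 lower (10.0%). Interferon-response macrophages had 5 higher and 2 lower (12.5%). The other macrophage gates lay on the lower side or were split. The Gpnmb macrophages had 0 higher and 3 lower (21.4%), the resident-like macrophages 0 and 4 (13.2%), and the C1q macrophages outside every other gate 0 and 5 (24.4%). The last count fell to 3 without infarct 3. Splits were found in the MHC-II-high macrophages, with 2 higher and 3 lower (20.7%), and in the Saa3 Arg1 macrophages, with 2 and 2 (25.4%). Cycling cells had 1 higher and 4 lower (28.1%). Among dendritic cells and the remaining types, Cd209a dendritic cells had 3 higher and 2 lower (33.3%) and mature dendritic cells 3 and 3 (22.7%). Non-classical monocytes had 2 higher and 3 lower (22.7%), and without infarct 3 these counts were 2 and 0. B cells had 0 higher and 2 lower (7.05%), and without infarct 1 or without infarct 3 neither of these was called. In a fit with no library block, 0 genes were called in transitional cells and 0 in MHC-II-high macrophages.

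**Figure D1:**
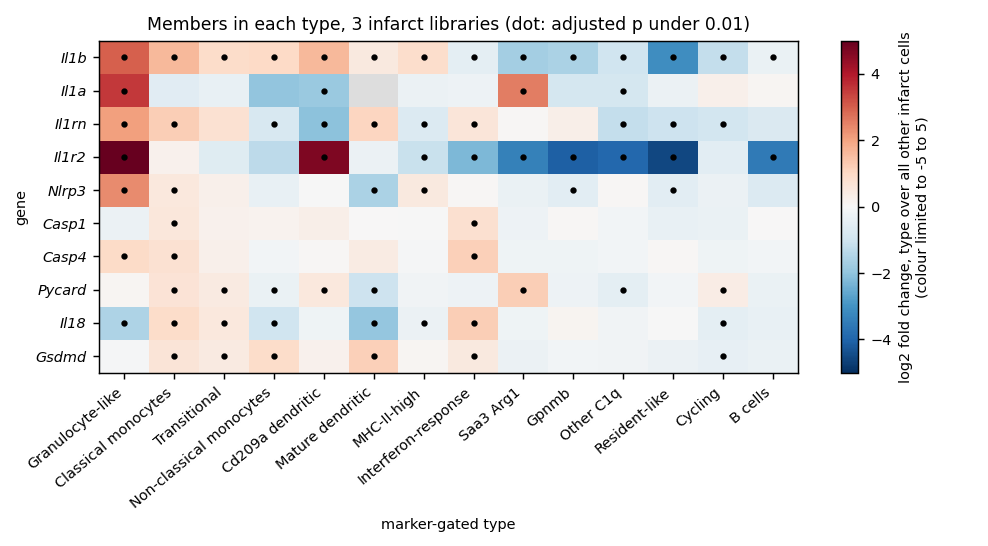
Log2 fold change of each of the 10 genes in each marker-gated type over all other cells of the same 3 infarct libraries (rows genes, columns types, colour from -5 to 5), with a dot where the adjusted p was under 0.01. Classical monocytes carry 8 dots, all on the higher side, while the Il1r2 row has 2 dots on the higher side and 7 on the lower.

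The Il1b level of the infarct types ran from granulocyte-like cells at the top to resident-like macrophages at the bottom. Between these ends, types next to each other in mean had overlapping infarct ranges. Against all other cells Il1b passed the test in all 14 types, higher in 7 and lower in 7. Granulocyte-like cells held the most, with 10808 CPM at baseline and 4788, 8796 and 7434 CPM in infarcts 1, 2 and 3. Every granulocyte-like value lay above every value of any other type. The log2 fold change over all other infarct cells was 3.00 ± 0.22 (SE derived from the edgeR test statistic, n = 3 libraries, edgeR adjusted p = 2.84e-41). These cells were 0.837%, 0.631% and 1.14% of the infarct cells and supplied 3.22%, 2.65% and 5.76% of the Il1b UMIs.

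Monocytes and Cd209a dendritic cells followed. In classical monocytes Il1b stood at 976 CPM at baseline and at 1682, 3477 and 1630.3 CPM in the infarcts (log2 fold change over other infarct cells 1.64 ± 0.15, edgeR adjusted p = 0.000126). In Cd209a dendritic cells it stood at 1075 CPM at baseline and at 1772, 3513 and 1813 CPM (1.62 ± 0.09, edgeR adjusted p = 1.8e-11). The infarct ranges of these types overlapped, with infarct 2 highest in both. Non-classical monocytes (1829, 2064 and 1139.8 CPM) and transitional cells (1082, 2311 and 1143 CPM) were also higher than the other cells, by log2 0.98 ± 0.10 and 0.91 ± 0.11.

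Among C1q macrophages, Il1b was high in those rich in class II antigen-presentation genes and low in those that passed the Gpnmb or resident-like gate. MHC-II-high macrophages held 1416 CPM at baseline and 1121, 1255 and 1104 CPM in the infarcts, against 784, 954 and 652 CPM over all kept infarct cells (log2 fold change over other cells 0.88 ± 0.09, edgeR adjusted p = 0.00019). Gpnmb macrophages held 316 CPM at baseline and 258, 371 and 247 CPM in the infarcts (-1.59 ± 0.05, edgeR adjusted p = 6.45e-07). Resident-like macrophages, gated on genes such as Lyve1, Cd163 and Timd4, held 53.8, 131 and 121 CPM in the infarcts, all below the 291 CPM of the baseline library, and their log2 fold change over other infarct cells was -3.09 ± 0.11 (edgeR adjusted p = 9.47e-53). Resident-like cells had the lowest mean of the 14 types, and their range stood clear of the next type. MHC-II-high macrophages supplied the largest share of Il1b UMIs of any gate in every library, with 39.0% at baseline and 27.8%, 26.5% and 35.0% in the infarcts. Resident-like cells supplied 11.3% at baseline and 0.0779%, 0.135% and 0.298% in the infarcts, where they had gone from 30.4% of the cells to between 1.07% and 1.63%.

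**Figure D2:**
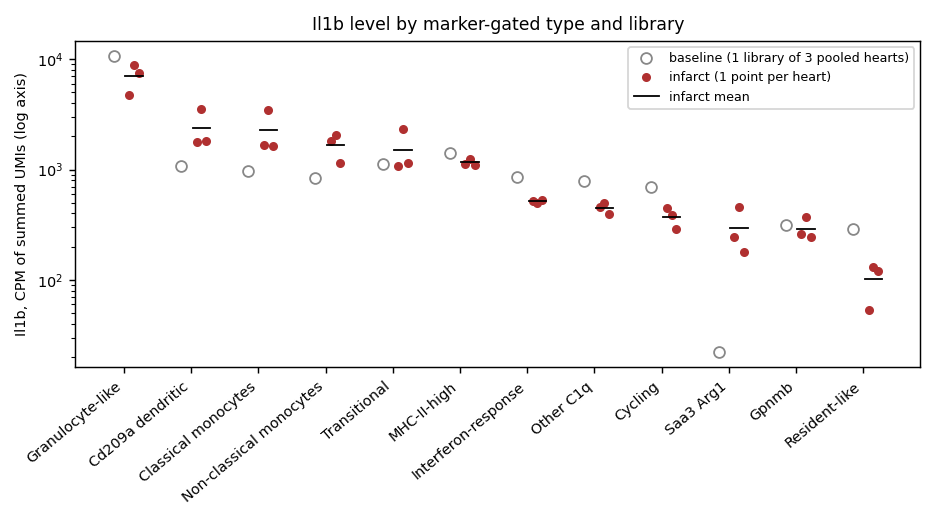
Il1b level (CPM of summed UMIs, log axis) in 12 marker-gated types, with the baseline library as an open circle, each infarct library as a filled point and a bar at the infarct mean. Granulocyte-like cells lie between 4788 and 10808 CPM, above all other types, and resident-like macrophages of the infarcts lie lowest, between 53.8 and 131 CPM. The baseline point of Saa3 Arg1 rests on 22 cells. B cells and mature dendritic cells are not drawn.

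At a fixed depth of 2000 UMIs per cell (shallower cells left out), the share of cells with an Il1b UMI was also higher in classical monocytes than in resident-like macrophages. It was 68.1%, 84.0% and 63.4% of classical monocytes in the infarcts and 48.6% at baseline (95% exact binomial interval 45.2 to 51.9, counting error only). It was 50.5%, 52.4% and 49.6% of MHC-II-high macrophages and 8.94%, 11.5% and 10.5% of resident-like macrophages in the infarcts. Fibroblast-like cells, which are not myeloid, gave 1 of 34, 0 of 8 and 2 of 14 cells at the same depth. These cells are too few to set a background for the resident-like share. Other gates that are not myeloid held more Il1b over all their UMIs. B cells held 719, 967 and 405 CPM in the infarcts, against 53.8, 131 and 121 CPM in resident-like macrophages. Endothelial-like cells held 83.1, 690 and 437 CPM, from only 12, 10 and 8 cells. At baseline B cells held 528, endothelial-like cells 187 and resident-like macrophages 291 CPM. The part of background in the resident-like share was not tested. Without thinning the classical monocyte mean over the infarcts was 83.6%, against 71.8% at 2000 UMIs.

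Il1a was scarce, and its transcripts clustered in granulocyte-like cells and in Saa3 Arg1 macrophages, a macrophage group named for serum amyloid A3 and arginase-1. Over all kept cells it stood at 2.91 CPM at baseline and at 2.79, 1.68 and 3.59 CPM in the infarcts. Saa3 Arg1 macrophages held 10.5, 25.6 and 11.9 CPM, from 77, 23 and 68 UMIs, and every infarct library of this type lay above the all-cell values. The log2 fold change over other infarct cells was 2.56 ± 0.32 (edgeR adjusted p = 1.58e-05). The type supplied 31.2%, 14.6% and 22.2% of the Il1a UMIs from 9.89%, 0.844% and 6.36% of the infarct cells. At baseline, 0 Il1a UMIs were counted in its 22 cells, which allows up to 11.7 CPM by the exact Poisson interval. Granulocyte-like cells held 12.9, 29.7 and 64.9 CPM in the infarcts from 6, 8 and 28 UMIs (log2 3.52 ± 0.51, edgeR adjusted p = 2.55e-10), and 0 UMIs at baseline. So Il1b and Il1a went opposite ways in Saa3 Arg1 macrophages, where Il1b was lower than in other cells (245, 453 and 179 CPM, log2 -1.69 ± 0.14, edgeR adjusted p = 2.24e-07). The lower calls of Il1a, in Cd209a dendritic cells and in C1q macrophages outside every other gate, were each lost when infarct 2 or infarct 3 was left out (adjusted p 0.0127 and 0.0381 for the former, 0.0108 and 0.0627 for the latter), and the former also without infarct 1 (0.0968).

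Il18 showed another distribution, with the highest levels in interferon-response macrophages and classical monocytes and low levels in granulocyte-like and mature dendritic cells. Interferon-response macrophages, gated on Ifit1, Rsad2, Isg15 and related genes, held 74.4, 72.6 and 68.6 CPM in the infarcts and 65.4 CPM at baseline. The infarct values stood clear of the 34.7, 37.7 and 34.5 CPM over all kept cells, with a log2 fold change over other cells of 1.24 ± 0.07 (edgeR adjusted p = 1.2e-08). Classical monocytes held 51.6, 80.2 and 56.4 CPM (log2 0.91 ± 0.12, adjusted p = 0.000644 in the same edgeR fit). In granulocyte-like cells only 7, 5 and 4 Il18 UMIs were counted, and the lower call (log2 -1.53 ± 0.34, edgeR adjusted p = 0.000101) was lost without infarct 3 (adjusted p = 0.0339). Mature dendritic cells held 10.8, 8.53 and 3.88 CPM (log2 -1.93 ± 0.38, edgeR adjusted p = 3.69e-06).

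The antagonist gene Il1rn was higher, like Il1b, in granulocyte-like cells and classical monocytes, but lower in Cd209a dendritic cells. Granulocyte-like cells held 141 CPM of Il1rn at baseline and 81.7, 241 and 223 CPM in the infarcts (log2 fold change over other infarct cells 2.04 ± 0.18, edgeR adjusted p = 1.04e-27). Classical monocytes held 28.5 CPM at baseline and 83.5, 101 and 59.6 CPM in the infarcts, with every infarct value above the baseline (1.23 ± 0.09, edgeR adjusted p = 4.74e-05). Mature dendritic cells, marked by Ccr7 and Fscn1, held 50.8, 108 and 77.6 CPM (1.06 ± 0.21, edgeR adjusted p = 4.12e-06). Cd209a dendritic cells had the lowest mean of the 14 types, with 8.62, 13.6 and 5.63 CPM (-2.06 ± 0.16, edgeR adjusted p = 3.78e-09). MHC-II-high macrophages also lay lower for Il1rn (25.4, 24.7 and 21.4 CPM, log2 -0.67 ± 0.07, edgeR adjusted p = 0.000204), whereas their Il1b was higher than in other cells.

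The decoy receptor gene Il1r2 was higher in granulocyte-like and Cd209a dendritic cells and lower in 7 types. Granulocyte-like cells held 290.0 CPM at baseline and 221, 419 and 346 CPM in the infarcts (log2 5.76 ± 0.18, edgeR adjusted p = 5.2e-207). Cd209a dendritic cells held 16.1 CPM at baseline and 67.6, 188 and 78.8 CPM in the infarcts, and all infarct values lay above the baseline interval of 11.1 to 22.5 CPM (log2 over other infarct cells 4.66 ± 0.18, edgeR adjusted p = 1.48e-13). The range of the granulocyte-like libraries did not overlap that of the Cd209a cells, and that of the Cd209a cells did not overlap that of any type further down. Cd209a cells supplied 11.7% of the Il1r2 UMIs at baseline and 40.3%, 46.6% and 27.9% in the infarcts. Granulocyte-like cells supplied 26.2%, and 19.6%, 14.1% and 29.7%. In Gpnmb macrophages 5, 10 and 12 UMIs were counted (0.294, 0.463 and 0.692 CPM, log2 -4.07 ± 0.22, edgeR adjusted p = 6.99e-06). In resident-like cells of the infarcts 0, 0 and 1 UMI was counted. In MHC-II-high macrophages Il1r2 was lower than in all other cells (log2 -1.11 ± 0.10, edgeR adjusted p = 0.000135) but higher against C1q macrophages and monocytes alone (1.26, edgeR adjusted p = 0.000334). The lower call in B cells rests on 1 UMI and was lost without infarct 1, 2 or 3 (adjusted p of 0.108, 0.0425 and 0.0654).

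Nlrp3, the sensor, was highest in granulocyte-like cells, then in classical monocytes and MHC-II-high macrophages. Granulocyte-like cells held 376 CPM at baseline and 157, 264 and 411 CPM in the infarcts, above all other types (log2 2.35 ± 0.17, edgeR adjusted p = 5.61e-41). MHC-II-high macrophages held 77.8 CPM at baseline and 54.3, 46.6 and 68.5 CPM in the infarcts (log2 over other infarct cells 0.47 ± 0.04, edgeR adjusted p = 5.83e-05). Gpnmb macrophages held 53.5 CPM and then 31.8, 30.6 and 35.7 CPM (-0.54 ± 0.07, edgeR adjusted p = 0.000788). The infarct ranges of MHC-II-high and Gpnmb macrophages did not overlap. Classical monocytes held 52.5, 58.0 and 84.7 CPM (0.53 ± 0.09, edgeR adjusted p = 0.00227), a call that was lost without infarct 3 (adjusted p = 0.0207). Mature dendritic cells held 11, 1 and 6 Nlrp3 UMIs (log2 -1.59 ± 0.32, edgeR adjusted p = 4.46e-06), although the Il1b call in them was on the higher side (831, 1157 and 1183 CPM, log2 0.51 ± 0.13), the latter being lost without infarct 3 (adjusted p = 0.263).

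Pycard, the adaptor gene, had its highest mean in Saa3 Arg1 macrophages. They held 854 CPM at baseline and 544, 755 and 789 CPM in the infarcts, against 339, 263 and 286 CPM over all kept infarct cells (log2 fold change over other cells 1.24 ± 0.14, edgeR adjusted p = 8.06e-06). Granulocyte-like cells lay above them in infarct 1 (591 CPM), and the lowest Saa3 Arg1 library stood level with the highest library of classical monocytes. Classical monocytes held 544, 399 and 401 CPM (0.69 ± 0.07, edgeR adjusted p = 0.000284) and Cd209a dendritic cells 472, 410 and 346 CPM (0.52 ± 0.07, edgeR adjusted p = 5.3e-06). Mature dendritic cells held 188, 93.8 and 120 CPM, the lowest mean of the 14 types (-1.04 ± 0.16, edgeR adjusted p = 1.9e-09).

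The caspase genes had the fewest calls of the 10 genes, with 2 for Casp1 and 3 for Casp4, all on the higher side. Interferon-response macrophages were highest for Casp1, with 88.4, 71.6 and 76.9 CPM against 49.5, 54.0 and 51.4 CPM over all kept infarct cells (log2 0.79 ± 0.08, edgeR adjusted p = 7.38e-06). The same type held 66.4, 63.2 and 80.1 CPM of Casp4, against 33.7, 35.1 and 38.6 CPM over all kept infarct cells (1.17 ± 0.07, edgeR adjusted p = 3.34e-08). In both cases the range did not overlap that over all kept cells, but it did overlap that of classical monocytes. Classical monocytes were higher for Casp4 (45.4, 67.7 and 58.3 CPM, 0.76 ± 0.12, edgeR adjusted p = 0.00145) and for Casp1 (61.2, 87.4 and 68.7 CPM, 0.56 ± 0.10, edgeR adjusted p = 0.00268). The Casp1 call in classical monocytes was lost without infarct 3 (adjusted p = 0.0142), and the Casp4 call in granulocyte-like cells (log2 0.94 ± 0.21) was lost without infarct 1 (log2 0.55, adjusted p = 0.207).

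Gsdmd, the pore-forming target, was highest in mature dendritic cells and non-classical monocytes and was not called in most macrophage gates. Mature dendritic cells held 102, 108 and 105 CPM (log2 1.20 ± 0.19, edgeR adjusted p = 1.94e-09), from 66, 38 and 27 UMIs. Non-classical monocytes held 94.0 CPM at baseline and 100.5, 98.2 and 94.4 CPM in the infarcts (0.92 ± 0.17, edgeR adjusted p = 2.16e-07). Both ranges stood clear of the types below. Between them the gap was narrow, from 101.6 CPM in the lowest mature dendritic library to 100.5 CPM in the highest non-classical library. With so few UMIs their order is uncertain, and it was not tested. Classical monocytes came next with 73.5, 72.8 and 70.7 CPM, and their baseline value was 72.8 CPM. Gpnmb, MHC-II-high, resident-like and other C1q macrophages lay between 38.0 and 55.4 CPM in every infarct library, and no Gsdmd call was made in these gates.

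Classical monocytes were then compared directly with the C1q macrophages of the same hearts, to set the blood-like cells against the tissue macrophages. 9 of the 10 genes were called higher in the monocytes and 0 lower, where 32.0% of 12726 genes were called. The median log2 fold change of the 10 genes was 0.75, against -0.05 over all genes. Il1b stood at 1682, 3477 and 1630.3 CPM in the monocytes against 559, 651 and 524 CPM in the macrophages, with no overlap (log2 1.91 ± 0.16, edgeR adjusted p = 6.58e-05). Il1rn stood at 83.5, 101 and 59.6 CPM against 31.8, 33.1 and 26.3 CPM (1.44 ± 0.10, edgeR adjusted p = 3.06e-05). Il1r2 stood at 3.53, 13.2 and 8.14 CPM against 1.00, 1.69 and 1.21 CPM (2.58 ± 0.29, edgeR adjusted p = 0.000271). The ranges did not overlap for any of these genes. The other called genes had smaller differences, with log2 fold changes from 0.53 for Nlrp3 to 0.86 for Il18. Il1a did not pass (2.58, 1.44 and 0.651 CPM against 2.72, 1.36 and 3.39 CPM). Without infarct 3 the calls of Nlrp3 (adjusted p = 0.0233) and Casp1 (0.0111) were lost. Granulocyte markers summed to 64.4, 82.9 and 110 CPM in the monocytes of the infarcts and to 54.4 to 62.5 CPM in the macrophages, and their part in these differences was not tested.

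The Gpnmb gate held 16.4%, 21.1% and 18.3% of the infarct cells and 1.07% of the baseline cells. All C1q macrophages whose summed Gpnmb, Spp1 and Gdf15 UMIs reached the cut-off are called Gpnmb-positive here, whatever other macrophage gate they also passed. A cell can be Gpnmb-positive from Spp1 or Gdf15 alone. These cells were compared with the other, Gpnmb-negative, C1q macrophages of the same hearts. Il1b was lower and its antagonist Il1rn higher in the Gpnmb-positive cells. Il1b stood at 249, 367 and 241 CPM against 709, 792 and 633 CPM (log2 -1.30 ± 0.06, edgeR adjusted p = 2.94e-08). Il1rn stood at 47.5, 50.8 and 39.5 CPM against 24.2, 24.4 and 21.1 CPM (1.02 ± 0.05, edgeR adjusted p = 3.23e-08). Neither pair of ranges overlapped, and every infarct showed both directions. Nlrp3 was lower (32.2, 30.9 and 36.1 CPM against 49.1, 40.7 and 63.0 CPM, -0.57 ± 0.06, edgeR adjusted p = 2.17e-05). In all, 2 genes were called higher and 3 lower, where 21.3% of 12643 genes were called, and the median over the 10 genes was -0.08 against -0.01 over all genes. The lower call of Il1r2 (-1.93 ± 0.28) was lost without infarct 2 (adjusted p = 0.0117), and the higher call of Il18 (0.23 ± 0.05) without infarct 3 (adjusted p = 0.0164). With no library block 2 calls were left, Il1b and Il1rn. Pycard, Casp1, Casp4, Gsdmd and Il1a did not pass, with log2 fold changes between -0.21 and 0.11.

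**Figure D3:**
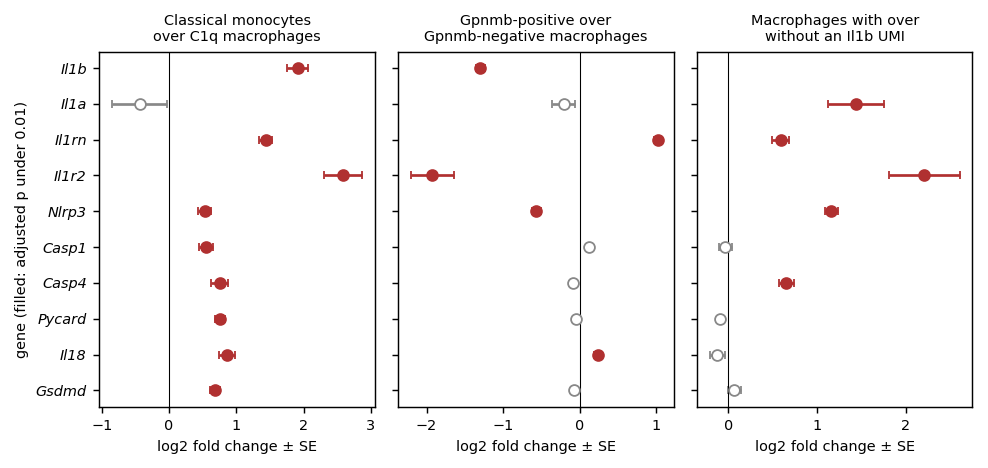
Log2 fold change ± SE of each gene in 3 comparisons within the infarct libraries: classical monocytes over C1q macrophages, Gpnmb-positive over Gpnmb-negative macrophages, and macrophages with over without an Il1b UMI (filled points: adjusted p under 0.01). In the first panel 9 of 10 points are filled and lie above 0, and in the second Il1rn lies at 1.02 and Il1b at -1.30.

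To ask which of the other genes were found in the same cells as Il1b, C1q macrophages thinned to 2000 UMIs were divided by whether they held an Il1b UMI. There were 2135, 2830 and 2150 macrophages with and 4696, 5284 and 5133 without one in the infarcts. The sensor gene Nlrp3 had a higher level in the cells with Il1b. It was found in 10.8%, 9.86% and 16.3% of the cells with Il1b and in 5.94%, 5.02% and 7.25% of the others, and its log2 fold change was 1.16 ± 0.07 (edgeR adjusted p = 9.16e-18). At baseline the shares were 14.0% and 8.78%. Casp4 was found in 7.59%, 7.67% and 8.28% of the cells with Il1b and in 5.09%, 4.94% and 5.77% of the others (log2 0.65 ± 0.08, edgeR adjusted p = 1.87e-08). Both genes were found more often in the cells with Il1b in every library, baseline included. In all, 5 of the 9 genes tested were called higher and 0 lower, where 10.6% of 10791 genes were called, with a median of 0.59 against 0.00 over all genes. The other calls rest on fewer UMIs or on 1 library. Il1a (log2 1.44 ± 0.31) and Il1rn (0.59 ± 0.10) were lost without infarct 3 (adjusted p of 0.0601 and 0.0189), and Il1r2 (2.21 ± 0.40) without infarct 2 (0.0201), so that 3 calls were left without infarct 3. By DESeq2 2 were called, Nlrp3 and Casp4, and with no library block 1, Casp4. Pycard, Casp1, Il18 and Gsdmd did not pass, with log2 fold changes between -0.12 and 0.06. Since the cells were divided by a detected transcript, cells without an Il1b UMI may still hold the transcript. The macrophage gates also differed in their share of cells with an Il1b UMI. The infarct mean was 50.8% in MHC-II-high and 20.9% in Gpnmb macrophages, and Nlrp3 was called higher in the former and lower in the latter. The cells were not divided within single gates. The part of the gate mix in these differences, and in those of the pathway lists below, was therefore not tested.

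**Figure D4:**
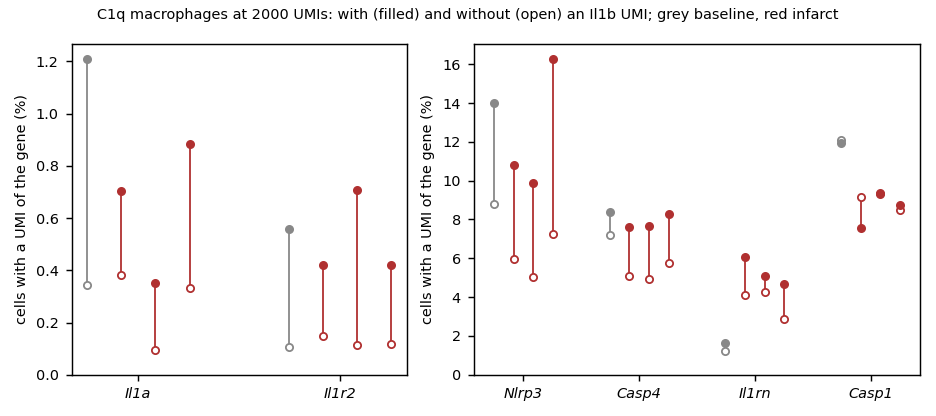
Share of C1q macrophages, thinned to 2000 UMIs, that held a UMI of the gene, among cells with an Il1b UMI (filled) and without one (open), for the baseline library (grey) and infarcts 1 to 3 (red, left to right). The filled Nlrp3 points lie at 14.0%, 10.8%, 9.86% and 16.3%, each above its open point, while the Casp1 pairs lie close together.

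In classical monocytes the same division gave 581, 508 and 242 cells with and 272, 97 and 140 without an Il1b UMI in the infarcts. Of the 7 genes tested, 0 were called, where 0.321% of 5600 genes were called. The unadjusted edgeR p was 0.000874 for Nlrp3 (69.2, 70.0 and 93.3 CPM with against 32.3, 37.2 and 54.9 CPM without, log2 0.94 ± 0.23, adjusted p = 0.0803) and 0.0391 for Il1rn, and 0 genes were called by DESeq2 as well. Nlrp3 was higher in the cells with Il1b in 3 of 3 infarcts.

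The infarct libraries were next set beside the baseline library. Over all kept cells none of the 8 genes with at least 10 CPM changed 2-fold with all infarcts on one side, where 9.56% of 8249 genes did. Il1rn came closest, at 20.2 CPM at baseline (95% exact Poisson interval 19.1 to 21.3) and 39.0, 44.9 and 31.5 CPM in the infarcts. It was past 2-fold without infarct 3 (log2 ratio 1.02, against 0.90 with it) and under TMM scaling (1.17). Pycard stood at 182 CPM and at 339, 263 and 286 CPM. All infarct values of both genes lay above the baseline. Nlrp3 (62.3 CPM, then 43.8, 39.5 and 58.4 CPM), Casp1 (68.6 CPM, then 49.5, 54.0 and 51.4 CPM) and Casp4 (48.7 CPM, then 33.7, 35.1 and 38.6 CPM) lay below the baseline in every infarct, with log2 ratios of -0.39, -0.40 and -0.43. The median log2 ratio of all genes with at least 10 CPM was -0.20, and 0.07 after TMM scaling, under which these ratios were -0.12, -0.12 and -0.15. Il1b stood at 839 CPM at baseline and at 784, 954 and 652 CPM in the infarcts, on both sides of the baseline, and its log2 ratio changed sign under TMM scaling (-0.07 and 0.21), as did that of Gsdmd (-0.05 and 0.23) and that of Il1a (-0.09 and 0.12). In sums over all cells, fewer cells of a type and less RNA per cell cannot be told apart.

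Within types the baseline and infarct libraries differed in a way that the sums over all cells did not show for Il1b. In classical monocytes Il1b was 976 CPM at baseline (interval 953 to 999) and 1682, 3477 and 1630.3 CPM in the infarcts, a mean ratio of 2.32. In resident-like macrophages it was 291 CPM at baseline (284 to 298) and 53.8, 131 and 121 CPM in the infarcts, 2.84-fold lower on average. Infarct 2 was the highest in both, and without it the classical monocyte difference was under 2-fold (log2 ratio 0.76). In classical monocytes 2 of 8 genes, Il1b and Il1rn, were past 2-fold upward and 0 downward (7.63% of all genes past 2-fold). The resident-like macrophages had Il1rn and Pycard past 2-fold upward and Il1b downward (3 of 8 genes, 8.44% of all genes). Gpnmb macrophages had 1, Il1rn (8.04%), and MHC-II-high and other C1q macrophages had 0 (9.18% and 11.8%). Transitional cells had 2 of 8 genes upward, where 195 of 8023 genes were upward and 604 downward. Non-classical monocytes and cycling cells had 1 of 8 each upward, where 115 of 7524 and 267 of 8421 genes were upward. Interferon-response macrophages had 0 of 8, where 379 of 8053 genes were upward and 1055 downward. Il1rn in resident-like macrophages stood at 6.51 CPM and then at 16.9, 32.6 and 13.9 CPM, from 17, 30 and 19 UMIs in the infarcts, and the difference fell under 2-fold with stricter gates (log2 ratio 0.65). Pycard in them stood at 139.9 CPM and then at 295, 238 and 352 CPM, and without infarct 3 the log2 ratio was 0.92. In Gpnmb macrophages Il1rn stood at 20.8 CPM at baseline, from 110 cells, and at 45.6, 44.3 and 38.5 CPM, and the log2 ratio was 0.96 without infarct 1 and 0.49 in cells thinned to 2000 UMIs. In MHC-II-high macrophages Pycard was 146 CPM at baseline and 274, 237 and 224 CPM in the infarcts, and Il1b 1416 CPM and 1121, 1255 and 1104 CPM.

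In Cd209a dendritic cells Il1r2 was 16.1 CPM at baseline and 112 ± 66.6 CPM in the infarcts (mean and SD, n = 3), a ratio of 6.95. Its log2 ratio was 2.72, and 2.12 without infarct 2. Their Il1b stood at 1075 and then at 1772, 3513 and 1813 CPM, a ratio of 2.20 that was under 2-fold without infarct 2 (log2 ratio 0.74). In these cells 2 of 9 genes were past 2-fold upward and 0 downward, where 243 of 7878 genes were upward and 551 downward. Granulocyte markers summed to between 11.8 and 18.2 CPM in the Cd209a dendritic cells over the 4 libraries. Granulocyte-like cells themselves held 78.4 CPM of Pycard at baseline, from 20 UMIs, and 591, 301 and 223 CPM in the infarcts, all above the baseline interval of 47.9 to 121 CPM. Many genes differed in this type. Of 8191 genes, 1608 were past 2-fold upward and 1156 downward, against 2 and 0 of the 10 genes. In Saa3 Arg1 macrophages 4 of 9 genes were upward, from 22 baseline cells, where 1020 of 8146 genes were upward and 727 downward. Their Il1b stood at 22.2 CPM at baseline and at a mean of 293 CPM in the infarcts. Casp4 was past 2-fold downward in cycling cells (67.4 CPM, then a mean of 31.9 CPM) and in B cells (69.8, then 30.1 CPM). In these 2 types 648 of 8421 and 1234 of 8436 genes were downward.

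**Figure D5:**
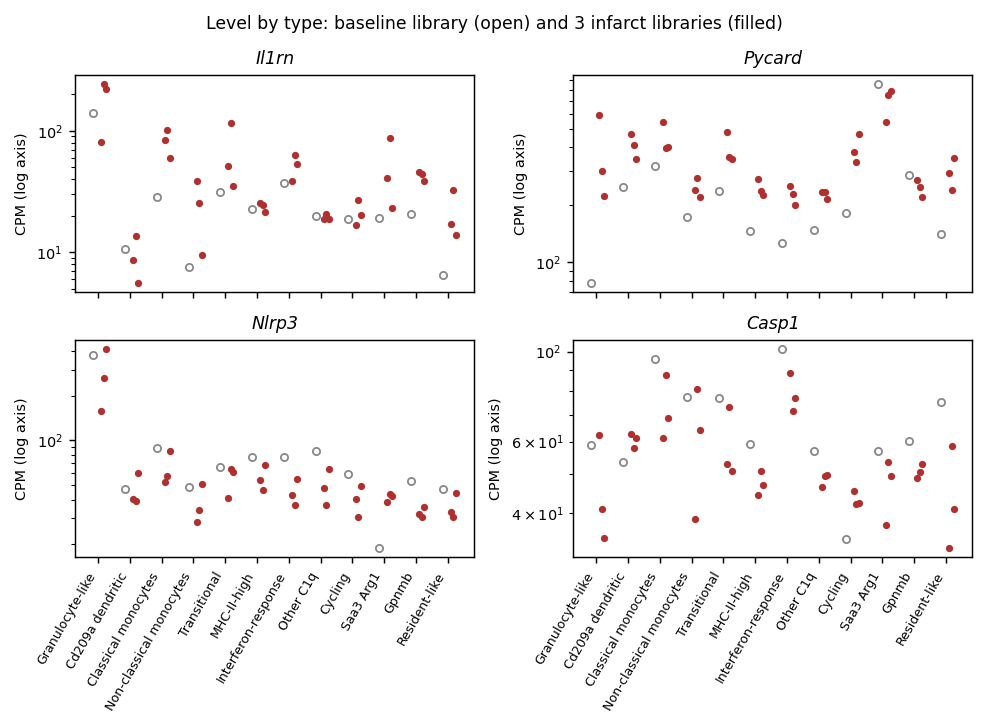
Levels of Il1rn, Pycard, Nlrp3 and Casp1 (CPM, log axes) in 12 marker-gated types, with the baseline library as an open circle and the 3 infarct libraries as filled points. In resident-like macrophages the Il1rn points of the infarcts lie at 16.9, 32.6 and 13.9 CPM above the open circle at 6.51, while Nlrp3 and Casp1 points mostly lie level with or below the open circles.

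Other genes of the pathway were read from 3 lists. Of 21 genes of the interleukin-1 family and its receptors, 17 were in the table under these symbols, and all 23 inflammasome genes and all 15 NF-kB genes were. The NF-kB list also held Cebpb, Spi1 and Hif1a, which encode transcription factors outside the NF-kB family, and the counts below include them. In classical monocytes over C1q macrophages, where 32.0% of all genes tested were called, 2 of 16 tested family genes were higher and 1 lower, with a median of 0.29 against -0.05 over all genes. Myd88, the adaptor of interleukin-1 receptors, was higher (99.3 ± 5.57 against 40.6 ± 5.31 CPM, log2 1.32 ± 0.10, edgeR adjusted p = 4.92e-05), and so was Il1rap, the shared receptor chain (1.49 ± 0.17). Il1rl1, the receptor for interleukin-33, was lower (-3.46 ± 0.35), from 6 UMIs in the monocytes. Among the inflammasome genes 6 of 21 were higher and 4 lower (median 0.32), with the pyrin gene Mefv at 1.89 ± 0.08 and Txnip at -1.70 ± 0.17. In the NF-kB list 8 of 15 genes were higher and 2 lower (median 0.36). The largest fold changes were those of Hif1a (1.64 ± 0.15) and Cebpb (1.40 ± 0.10), which are not NF-kB genes, followed by the kinase gene Ikbkb (1.11 ± 0.09).

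In Gpnmb-positive over Gpnmb-negative macrophages, where 21.3% of all genes tested were called, 0 of the 15 NF-kB genes were higher and 8 lower, with Nfkbiz at -0.71 ± 0.05 and Nfkbia at -0.45 ± 0.05 and a median of -0.18 against -0.01 over all genes. The inflammasome list had 1 higher, Ninj1, whose product takes part in membrane rupture after gasdermin pores (0.56 ± 0.05), and 6 lower (median -0.15). The family list had 0 of 15 higher and 2 lower (median -0.14), Il1rl1 (-1.52 ± 0.13) and Il18rap (-1.13 ± 0.12).

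In macrophages with an Il1b UMI, where 10.6% of all genes tested were called, 11 of 15 NF-kB genes were higher and 0 lower, with a median of 0.35 against 0.00 over all genes. Tnfaip3, which encodes the inhibitor A20, stood at 146 ± 61.5 against 50.4 ± 17.8 CPM (SD, n = 3, log2 1.58 ± 0.06, edgeR adjusted p = 6.18e-26). Nfkbiz (1.28 ± 0.04) and Nfkbia (1.26 ± 0.03) followed. The inflammasome list was split, with 2 of 21 higher and 2 lower (median 0.08), among them Mefv at 0.53 ± 0.09 and Ninj1 at -0.53 ± 0.05. The family list had 1 of 13 higher, the interleukin-18 receptor chain gene Il18rap (8.70 against 4.12 CPM, 1.13 ± 0.20), and 0 lower (median 0.11).

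In interferon-response macrophages, where 12.5% of all genes tested were called, 8 of 21 inflammasome genes were higher and 1 lower, with a median of 0.26 against -0.03 over all genes. Guanylate-binding protein genes led them, with Gbp5 at 94.97 ± 13.5 against 10.2 ± 1.89 CPM (log2 3.37 ± 0.08, edgeR adjusted p = 4.93e-12), Gbp2 at 2.65 ± 0.07 and Gbp3 at 2.08 ± 0.07. Il18bp, which encodes the binding protein that blocks interleukin-18, was higher in the same cells (45.3 ± 3.26 against 16.2 ± 2.70 CPM, 1.62 ± 0.10), as were Il18, Casp1 and Casp4 above. The cells were picked by interferon-response genes, so genes that vary together with those markers would be higher in them. The part of the gate in these differences was not tested.

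The genes whose levels most resembled each of the 10 were found by Pearson's r of log2(CPM + 1) over 57 points of type and library and 8008 genes. The points share libraries and marker gates, so r is given as a description. For Il1b the nearest were Snx20 (0.85), Pim1 (0.84) and Junb (0.81). For Nlrp3 they were Hcar2 (0.84), Siglece (0.79) and Trib1 (0.79), and for Il1r2 they were Il18rap (0.82), Atg3 (0.80) and Siglecf (0.79). Pycard lay nearest to Eno1 (0.83), Mrps15 (0.82) and Atp5a1 (0.82), Il18 to Ly86 (0.81), Fcgr1 (0.80) and Ms4a6d (0.79), and Gsdmd to Prr5l (0.83), Etv6 (0.81) and Cd47 (0.79). Weaker neighbours were found for Il1rn (Slc9a3r1, 0.77), Casp1 (Ptpro, 0.75), Casp4 (Trim12c, 0.69) and Il1a (Hilpda, 0.66). Among the 10 genes themselves, Il1b had an r of 0.70 with Il1r2 and 0.61 with Nlrp3, but of -0.05 with Pycard and -0.04 with Il18.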

How the data were processed

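Sorted EGFP-positive, Ly6G-negative cardiac cells were profiled with 10x 3' single-cell RNA-seq in 4 libraries. The authors aligned reads to mm10 with Cell Ranger (3.1.0 per the file headers, 3.0.1 per the labels' processing notes) and deposited raw UMI counts per gene and cell. The study's filters were applied (500 to 40000 UMIs, over 200 genes, genes in at least 3 cells) and mitochondrial genes were left out. No doublet caller was run, and cells carrying markers of 2 lineages were kept and then removed as an alternative. Cells were gated on marker UMIs per 10000. The 10 genes, the lists and the gates were chosen with earlier results of these data known. All 10 genes were named, and pathway genes were named where they passed the test with the 3 largest log2 fold changes of their list. Counts were summed per library and gate, and levels are CPM of the sums. Gates were compared within the 3 infarct libraries by edgeR's quasi-likelihood test (4.0.16, R 4.3.3; TMM, low-count filter, library as block, Benjamini-Hochberg adjustment over all genes tested, threshold 0.01), with DESeq2 (1.42.0) as an alternative. The pairing comes from both sums being taken from the same heart. The SE of an edgeR log2 fold change is its absolute value divided by the square root of the F statistic. It is not a spread measured between hearts. Each infarct library is 1 heart. The dispersion was estimated with information shared over genes, separately in each comparison. Very small p-values therefore do not rest on the spread of 3 hearts alone, and p-values of different types are not to be ranked against each other. The baseline library pools hearts and was compared by ratio only, where called means past 2-fold with all infarct libraries on one side among genes of at least 10 CPM. Python 3.11.15 with numpy 2.4.6 and scipy 1.17.1 was used. The fits were tested on simulated counts. Intervals cover counting error only.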

Additional observations from a re-analysis of the deposited data

Results flagged for a closer look

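The first result concerns Il1rn in MHC-II-high macrophages. In the baseline library it was 22.6 CPM in these cells and 19.5 CPM in all other cells, a log2 difference of 0.20, while the differences in the infarct libraries were -0.71, -0.99 and -0.65. The second result concerns Il1a in C1q macrophages outside every other gate. It stood at 7.98 CPM in them and 2.66 CPM in the other baseline cells, a log2 difference of 1.30, against -0.37, -0.63 and -0.76 in the infarct libraries. Both were picked out because the baseline library and every infarct library lay in opposite directions. With 1 baseline library the difference between the groups was not tested. Groups of 3 and of 1 are too small to test single libraries as outliers.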

How the results depend on the processing

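Of 89 called fold changes, 89 stayed called with DESeq2 size factors in edgeR and 89 with no filter on low counts, and 81, 80 and 68 did without infarct 2, infarct 1 and infarct 3. With no replicate block 51 of 89 stayed called. The DESeq2 Wald test kept 72 of 87. Of 84 called values, 84 stayed with at least 1000 UMIs per cell, 84 with cells over 10% mitochondrial UMIs removed, 76 with stricter gates and 81 with cells of 2 lineages removed, an alternative chosen after seeing the data. Thinning to 2000 UMIs kept 65 of 83. Of 70 calls against all other cells, 60 stayed against C1q macrophages and monocytes alone, and Il1r2 in MHC-II-high macrophages turned from -1.11 to 1.26 (log2). The 70 calls over 14 types fell to 41 with no replicate block and ran from 56 to 70 when 1 infarct was left out. The 9 calls of classical monocytes over C1q macrophages ran from 7 to 9 in this way and were 7 with no replicate block. The 5 calls between Gpnmb-positive and Gpnmb-negative macrophages were 2 with no replicate block, 3 in cells thinned to 2000 UMIs, and 4 to 5 with 1 infarct left out. The 5 calls in macrophages with an Il1b UMI were 2 by the DESeq2 Wald test, 1 with no replicate block and 3 to 5 with 1 infarct left out. Over all kept cells the count of genes past 2-fold between infarct and baseline was 0, and it was 1 (Il1rn) with TMM-scaled CPM, with CPM averaged over single cells and in cells thinned to 2000 UMIs, and 0 to 1 with 1 infarct left out. Within types it was 20, and 18 to 28 over the alternatives, counted over pairs of gene and type with at least 10 CPM. Saa3 Arg1 macrophages held the most, with 4 of 9 genes higher, where 1020 of 8146 genes were higher and 727 lower. The share of all genes past 2-fold was lowest in non-classical monocytes, with 115 of 7524 higher and 198 lower. It was highest in granulocyte-like cells, with 1608 of 8191 higher and 1156 lower. The share of classical monocytes with an Il1b UMI, 71.8% at 2000 UMIs, was 78.5% at 4000 UMIs and 83.6% without thinning, and deeper cells hold more UMIs. For the other changes the cause was not tested. Depth limits Il1a, and Il1r2 in macrophages, which rest on few UMIs, and the baseline values of Saa3 Arg1 (22 cells) and Gpnmb macrophages (110 cells).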
